A study of Rattus norvegicus with 6 samples.

Results

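The genes described here are 10 members of the extracellular matrix family of proteoglycans and their companions: the small leucine-rich proteoglycans Dcn, Bgn, Aspn, Lum, Fmod, Prelp and Ogn, the large hyaluronan-binding proteoglycans Acan (aggrecan) and Vcan (versican), and Mgp (matrix Gla protein), which carries no sugar chain. They were selected by gene symbol from 17525 measured genes, and all 10 were found. The list was drawn up with the levels of these same libraries in view, and the spread of Acan, Prelp and Mgp between libraries was among the values known when it was chosen. The values below therefore describe the members and test nothing about them.

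Small leucine-rich proteoglycans are secreted proteins whose curved repeat domain binds collagen fibrils and growth factors, and most carry chains of chondroitin, dermatan or keratan sulfate. Aggrecan and versican are much longer core proteins that bind hyaluronan and hold water through dense chondroitin sulfate. In the ovary, versican is laid down in the follicle, in mice it is cut by Adamts1 around ovulation, and decorin and biglycan belong to the collagen-rich stroma.

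Messenger RNA was measured in primary rat granulosa cells, the follicle cells around the oocyte, taken from 21-day-old SD rats 48 h after 60 IU of PMSG, a hormone that stimulates follicle growth, and cultured. Library titles read ATR for 3 libraries and Control for 3 others. Atrazine, a herbicide, is the subject of the series, but ATR is not spelled out in the labels, and neither the dose nor the time of exposure, nor what was exposed, is stated in them. Libraries of the Control group are not analysed here. Every value therefore belongs to ATR 1, ATR 2 and ATR 3 and none is an effect of exposure. Errors are SDs over these 3 libraries, and as nothing says that they came from separate animals or cultures, the spread may be technical.

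The libraries held 18677212 to 19170552 reads assigned to genes and correlated pairwise at 0.994 to 0.995 (Pearson's r over genes on the log2(TPM + 1) scale, genes not being independent replicates). TPM is expression per transcript length, scaled to the same total in every library, and is used for every comparison between genes. Where 3 values stand together they belong to ATR 1, ATR 2 and ATR 3 in that order. The labelled cell type was checked against its markers. Of 11 granulosa markers, 9 reached a mean of 1 TPM, led by Gja1 (connexin 43) at 1906 ± 114, Inha (inhibin alpha) at 443 ± 73.0 and Inhba (the activin and inhibin beta A chain) at 282 ± 1.92 TPM. Gata4 averaged 189 and Foxl2 55.1 TPM, while Nr5a2, Fshr, Amhr2 and Cyp11a1 were low, at 6.55, 5.8, 2.31 and 1.02 TPM. Amh (anti-Müllerian hormone) was at 0 to 0.14 TPM and Cyp19a1 (aromatase) at 0.04 to 0.09 TPM, so these defining markers of growing follicles were almost undetected. Of 8 surface epithelium markers, 5 reached a mean of 1 TPM, led by Upk3b at 1403, Krt8 at 405 and Lrrn4 at 167 TPM. Epcam, Muc16 and Krt19 of the same list were almost undetected, at 0.333, 0.167 and 0.137 TPM. The share of each cell type in the libraries was not tested. In bulk libraries, fewer cells of a type and less RNA per cell cannot be told apart.

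Biglycan dominated the group. Bgn (Gene ID 25181), a proteoglycan with dermatan or chondroitin sulfate chains that binds collagen, stood at 3287, 3160 and 3250 TPM, averaging 3232 ± 65.4 TPM (SD, n = 3). It ranked 18 among all 17525 genes and supplied 87.6%, 79.6% and 86.8% of the summed TPM of the 10 members in the same libraries. All 3 libraries lay within 1.04-fold of each other. The members together summed to 3822 ± 127 TPM, or 0.382% ± 0.0127 of all transcripts. Of the 10 members, 9 reached a mean of 10 TPM, against 50.2% of all genes, and 4 reached 100 TPM, against 10.7% of all genes. Their median was 53.7 TPM and that of all genes 10.1 TPM. Mgp passed 100 TPM in ATR 2 alone, and its mean without that library was 56.6 TPM. The member median lies between the means of Prelp and Acan, at 47.8 and 59.6 TPM, which were 24.7 and 35.4 TPM without ATR 2.

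**Figure D1:**
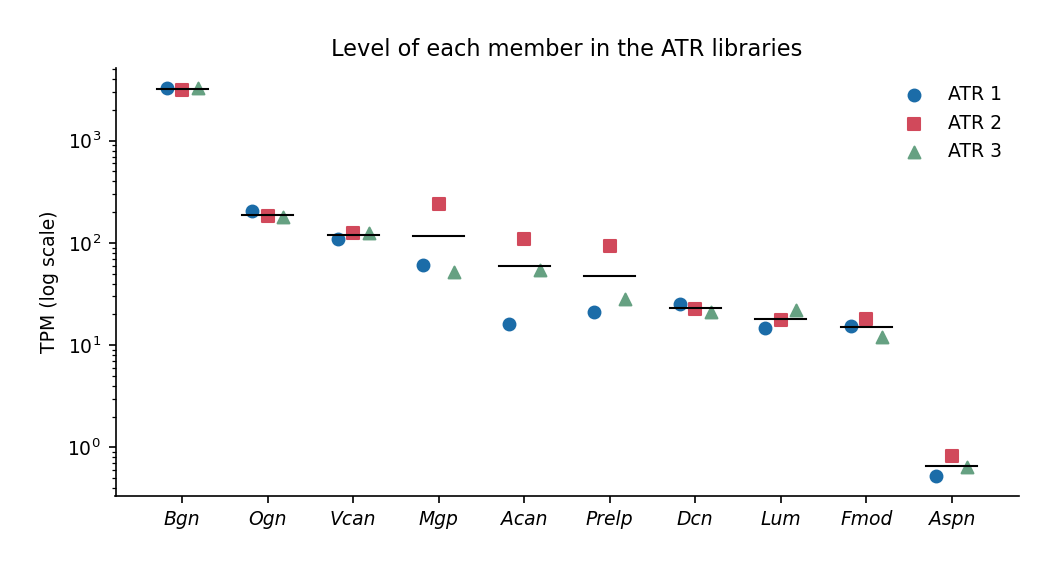
TPM (log axis) of each of the 10 members in ATR 1, ATR 2 and ATR 3, ordered by mean level, with a horizontal line at the mean of the 3 libraries. Bgn stands at 3232 TPM, far above the rest, Aspn at 0.663 TPM is the lowest, and the 3 points lie far apart for Mgp, Acan and Prelp.

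The order of mean levels was Bgn, Ogn, Vcan, Mgp, Acan, Prelp, Dcn, Lum, Fmod and Aspn. Bgn, Ogn and Vcan did not overlap one another in any library, and neither did Fmod and Aspn. From Vcan down to Fmod, the range of each gene over the 3 libraries overlapped that of the next in this order, so neighbours there did not differ beyond their spread. Mgp also overlapped Ogn, since it stood above Ogn in ATR 2.

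Of the class I proteins, decorin was a minor transcript beside its close relative biglycan. Dcn (Gene ID 29139), which binds collagen and TGF-beta, stood at 25.3, 22.8 and 21.2 TPM, averaging 23.1 ± 2.09 TPM. Its rank by mean TPM was 6127 among all genes. The ratio of Bgn to Dcn, in TPM within a library, was 130, 138 and 153 in the same order, so biglycan was the more abundant transcript by a wide margin in every library. Aspn (Gene ID 306805; asporin, a class I protein with an aspartate-rich stretch and no sugar chain) had 7, 11 and 9 reads, or 0.663 ± 0.150 TPM. At this depth the 3 counts cannot be told apart: the read ratio of ATR 2 to ATR 1 was 1.60, with an exact 95% interval of 0.565 to 4.86 that covers counting error only.

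The class II proteins were low to moderate. Lum (Gene ID 81682; lumican, a keratan sulfate proteoglycan that spaces collagen fibrils) stood at 14.8, 17.7 and 22.04 TPM, averaging 18.2 ± 3.66 TPM. Its highest library was ATR 3, where scaled reads were 1.53 times those of ATR 1 (1.29 to 1.82). Fmod (Gene ID 64507; fibromodulin, which binds collagen I and steers its cross-linking) stood at 15.3, 18.1 and 12.04 TPM, averaging 15.1 ± 3.01 TPM, and was highest in ATR 2. Lum and Fmod thus had different highest and lowest libraries at nearly the same mean level.

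Prelp (Gene ID 84400), a class II protein whose basic end binds heparan sulfate and which anchors basement membranes to the matrix, behaved differently. It stood at 21.2, 93.9 and 28.3 TPM, averaging 47.8 ± 40.1 TPM. ATR 2 lay far above the other libraries, which were near each other. The read ratio of ATR 2 to ATR 1 was 4.94 (4.48 to 5.44) and that of ATR 2 to ATR 3 was 3.66 (3.36 to 3.99), while ATR 3 to ATR 1 gave 1.35 (1.2 to 1.52). The mean without ATR 2 was 24.7 TPM. The ratio of reads to TPM, which follows the transcript length used by the authors' tools, also moved for Prelp: relative to the median gene it was 0.977, 1.06 and 0.959 in the 3 libraries. Its coefficient of variation of 5.63% compares with a median of 0.0620% over 10004 genes above 5 TPM, of which 176 exceeded 5%. The TPM ratio of highest to lowest library, 4.44, was accordingly smaller than the read ratio of 4.94.

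Ogn (Gene ID 291015; osteoglycin or mimecan, the class III member, which affects collagen fibril formation) was second by mean level, though below Mgp in ATR 2. It stood at 204, 181 and 179 TPM, averaging 188 ± 13.6 TPM, and was slightly higher in ATR 1 than in the other libraries. The 7 small leucine-rich members summed to 3568, 3495 and 3513 TPM, a spread of 38.2 TPM around 3525 TPM. That total is nearly all Bgn, and the class II sum varied much more, at 51.3, 130 and 62.4 TPM in the 3 libraries.

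Several small leucine-rich genes lie in clusters, and some neighbours in a cluster differed widely in level. Bgn is not part of these clusters and lies between Haus7 and Atp2b3 on chromosome X. Gene order was read from the RefSeq gene table of assembly GRCr8, counting protein-coding genes alone. Ogn is followed by Omd (osteomodulin, a keratan sulfate proteoglycan of bone), Aspn and, one gene further, Ecm2. Omd stood at 26.3 ± 1.13 TPM and Ecm2 at 0.833 ± 0.143 TPM. Mean levels within this cluster thus ran from 188 TPM at Ogn to 0.663 TPM at Aspn. Ecm2 and Aspn overlapped over the libraries, and Ecm2 was the lower in ATR 2, at 0.71 against 0.82 TPM. Ogn exceeded Aspn by 391, 221 and 275 times in the 3 libraries, on 7 to 11 reads of Aspn. Dcn and Lum are adjacent and were close, at ratios of Dcn to Lum of 1.72, 1.29 and 0.962 in TPM. Epyc (epiphycan, a class III protein of cartilage), on the far side of Lum and Kera, had 0, 5 and 17 reads. Optc, Prelp and Fmod stand in a row. Optc (opticin, a class III protein of the eye) had 3 to 6 reads, and Fmod varied 1.5-fold in TPM between its highest and lowest library, against 4.44-fold for its neighbour Prelp.

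**Figure D2:**
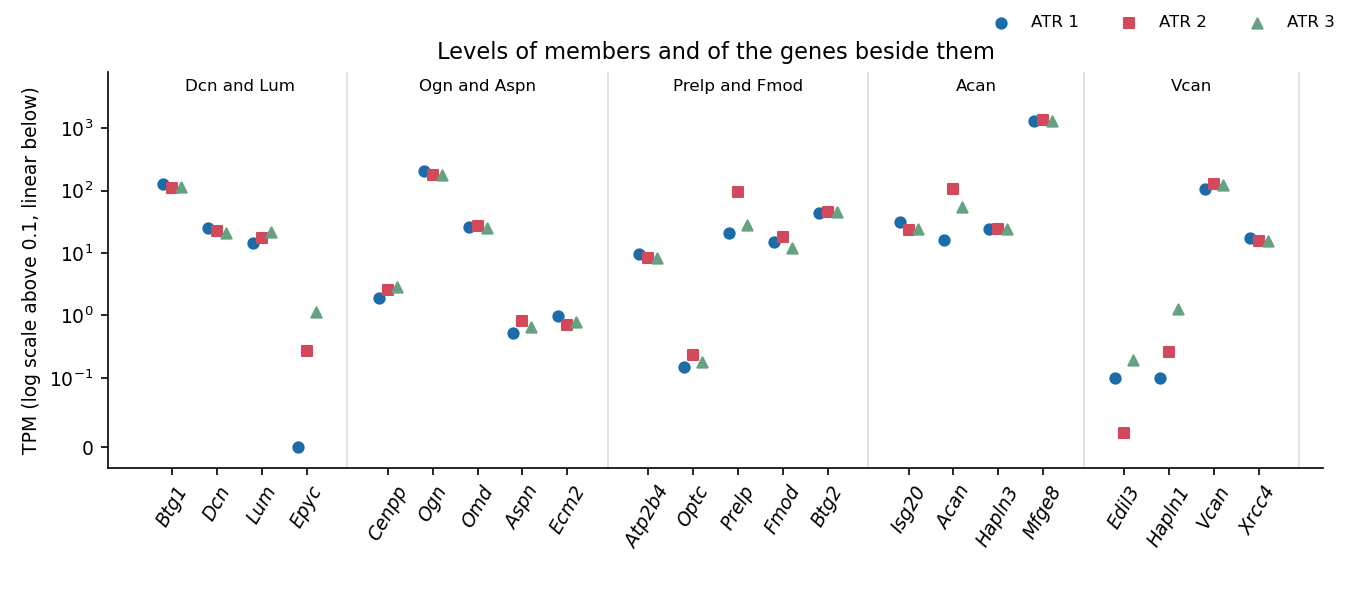
TPM in ATR 1, ATR 2 and ATR 3 (log axis above 0.1, linear below) for members and for genes beside them, in chromosome order from left to right within each panel, leaving out genes that are not analysed here. The 3 points spread widely at Prelp and Acan but not at Fmod or Hapln3 next to them, and Ogn at 188 TPM lies 2 places from Aspn at 0.663 TPM.

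RefSeq promoter windows of GRCr8, which run from 250 bases before to 50 after a gene's start, were matched by symbol for 6 of the 10 members. Those of Ogn (chr17:15258946-15259245, minus strand) and Aspn (chr17:15310420-15310719, minus strand) are shown because these members share a cluster and differed widely in level. Letters run 5′ to 3′ on the gene's strand, and capitals mark matches, on either strand, to the TATA box TATAAA, the CCAAT box, the GC box GGGCGG, the SMAD box CAGAC, the AP-1 motif TGANTCA, the TEAD motif GGAATG and the SOX motif ACAAAG.
Ogn: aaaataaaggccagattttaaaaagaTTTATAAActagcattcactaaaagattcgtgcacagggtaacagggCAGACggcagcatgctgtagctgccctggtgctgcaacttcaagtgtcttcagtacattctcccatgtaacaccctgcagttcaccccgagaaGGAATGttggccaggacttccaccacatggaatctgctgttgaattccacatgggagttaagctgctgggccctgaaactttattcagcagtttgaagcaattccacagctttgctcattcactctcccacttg
Aspn: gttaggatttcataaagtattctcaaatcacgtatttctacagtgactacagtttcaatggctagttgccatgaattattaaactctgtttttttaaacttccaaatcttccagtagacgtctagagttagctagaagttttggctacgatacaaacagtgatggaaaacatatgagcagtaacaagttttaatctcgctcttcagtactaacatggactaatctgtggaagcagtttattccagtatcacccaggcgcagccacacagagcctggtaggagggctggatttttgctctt
The Ogn window held TATAAA on both strands in overlapping positions, CAGAC and GGAATG. The TATAAA matches begin at -224 and -222 bases from the gene's start, and the letters alone do not make them a TATA box. Among 33469 windows of the same length, TATAAA was found in 14.2%, CAGAC in 50.1%, GGAATG in 14.2%, TGANTCA in 7.33% and ACAAAG in 18.8%. None of these motifs was found in the Aspn window. G and C made up 46.0% of the Ogn window and 39.0% of the Aspn window, against a median of 51.7% over all windows. These letter matches describe the windows and show no binding.

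The hyaluronan-binding proteoglycans were both expressed, with an SD on the log2(CPM + 0.5) scale, CPM being reads relative to the scaled library size, of 0.16 for Vcan and 1.41 for Acan, beside a median of 0.08 over all genes. Vcan (Gene ID 114122; versican) stood at 108, 126 and 126 TPM, averaging 120 ± 10.2 TPM, slightly lower in ATR 1 than in the others. Its read ratio of ATR 2 to ATR 1 was 1.21 (1.18 to 1.24), and that of ATR 2 to ATR 3 was 0.989 (0.964 to 1.02). With its long transcript, Vcan took 9209, 10969 and 11260 reads and ranked 230 by reads but 1542 by TPM.

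Acan (Gene ID 58968; aggrecan, best known from cartilage) stood at 16.0, 108 and 54.8 TPM, averaging 59.6 ± 46.3 TPM, from 1000, 6797 and 3519 reads. The 3 libraries were all far apart, with ATR 1 lowest and ATR 2 highest. The read ratio of ATR 2 to ATR 1 was 6.91 (6.46 to 7.39), that of ATR 3 to ATR 1 was 3.52 (3.28 to 3.78) and that of ATR 2 to ATR 3 was 1.96 (1.88 to 2.04). The mean was 35.4 TPM without ATR 2 and 81.5 TPM without ATR 1. Versican exceeded aggrecan in every library, by 6.76, 1.17 and 2.29 times in TPM, so the transcripts were almost equal in number in ATR 2 alone. Their sum was 124, 234 and 180 TPM.

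A link protein gene lies beside each of them. Hapln3, a link protein that fastens such proteoglycans to hyaluronan, is the gene after Acan and stood at 24.1, 24.65 and 24.55 TPM in the 3 libraries, a range of 0.55 TPM where Acan ranged over 92.1 TPM. Hapln1, the cartilage link protein and the gene before Vcan, had 3, 9 and 35 reads, lowest in ATR 1 as Vcan and Acan were.

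The promoter windows of Acan (chr1:142390701-142391000, plus strand) and Vcan (chr2:22595906-22596205, minus strand, the first of 2 overlapping windows of this gene) are shown because the genes share a family and differed in spread. Strand, capitals and motifs are as above, in assembly GRCr8.
Acan: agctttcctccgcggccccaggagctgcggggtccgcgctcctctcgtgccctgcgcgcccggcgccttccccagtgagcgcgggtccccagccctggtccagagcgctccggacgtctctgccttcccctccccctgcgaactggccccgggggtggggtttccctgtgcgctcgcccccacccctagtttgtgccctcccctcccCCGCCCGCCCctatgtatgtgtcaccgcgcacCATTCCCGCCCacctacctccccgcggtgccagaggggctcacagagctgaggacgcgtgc
Vcan: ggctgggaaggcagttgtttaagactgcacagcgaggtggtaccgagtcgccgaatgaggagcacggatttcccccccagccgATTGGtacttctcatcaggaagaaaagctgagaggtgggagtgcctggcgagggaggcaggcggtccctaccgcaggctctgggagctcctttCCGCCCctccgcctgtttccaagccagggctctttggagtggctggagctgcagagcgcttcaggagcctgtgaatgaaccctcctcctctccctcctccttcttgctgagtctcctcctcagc
The Acan window held GGGCGG 3 times, all on the opposite strand and 2 of them overlapping, and GGAATG once, sharing a base with a GC box. CCAAT and GGGCGG were each found once in the Vcan window. GGGCGG was found in 33.1% and CCAAT in 37.5% of all windows. The Acan window was 73.0% G and C with 28 CpG pairs, and the Vcan window 61.0% with 12, against medians of 51.7% and 7 over all windows.

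Mgp (Gene ID 25333), a small vitamin K-dependent protein that restrains calcification of arteries and cartilage in mice, varied about as much as Prelp. It stood at 61.5, 240 and 51.7 TPM, averaging 118 ± 106 TPM, from 265, 1040 and 229 reads. ATR 2 lay far above the others, with read ratios of 3.99 (3.48 to 4.58) to ATR 1 and 4.61 (3.99 to 5.35) to ATR 3. ATR 1 and ATR 3 could not be told apart beyond counting error, at a ratio of ATR 3 to ATR 1 of 0.865 (0.721 to 1.04). Without ATR 2 the mean was 56.6 TPM.

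Spread was set beside that of all genes on the scale log2(CPM + 0.5). Acan had an SD of 1.41, Prelp of 1.21 and Mgp of 1.19, and the other 6 members that averaged 1 CPM or more lay between 0.02 (Bgn) and 0.30 (Lum). The median was 0.28 over these 9 members and 0.08 over 12591 genes. At an average of 5 CPM or more, an SD above 0.5 was found in 3 of 9 members and in 129 of 10506 genes (1.23%). The chi-square test of reads against library sizes, with Benjamini-Hochberg adjustment, called 8 of the 9 members with at least 30 reads in all, against 23.2% of all genes tested, and Dcn was the member not called. Nothing is read from either count, since spread was known when the members were chosen. The test has no threshold on size, and Bgn, called with a range of 1.04-fold, shows how small a difference passes at 68675 to 72135 reads. With a library left out, Ogn and Vcan lost their call without ATR 1, Mgp without ATR 2 and Lum without ATR 3.

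**Figure D3:**
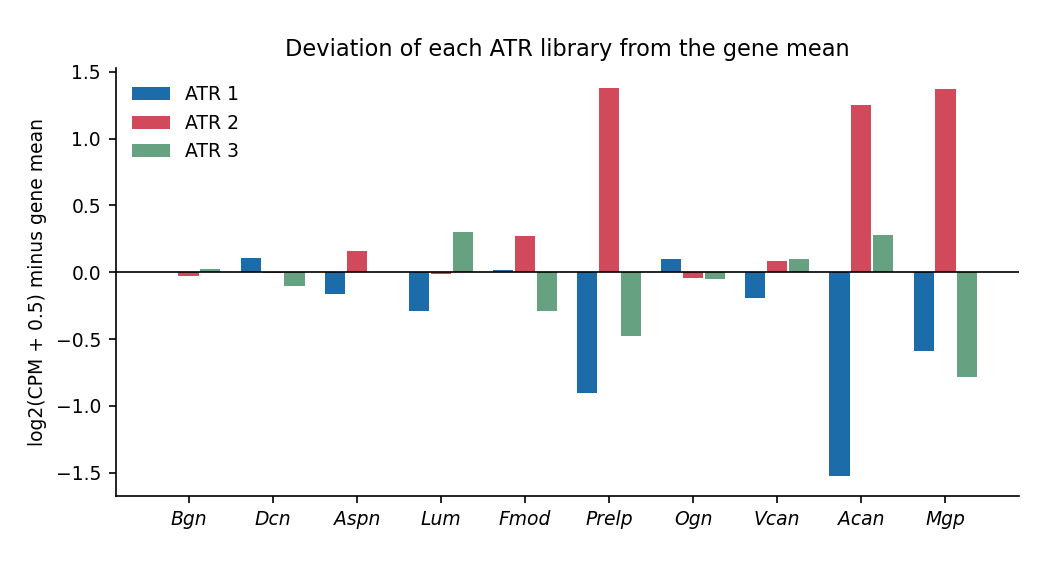
Deviation of ATR 1, ATR 2 and ATR 3 from each gene's mean on the scale log2(CPM + 0.5), for the 10 members ordered by class. Bars reach 1.38, 1.25 and 1.37 in ATR 2 for Prelp, Acan and Mgp, and -1.53 in ATR 1 for Acan, and the longest bar of the other members is 0.30, for Lum in ATR 3.

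**Figure D4:**
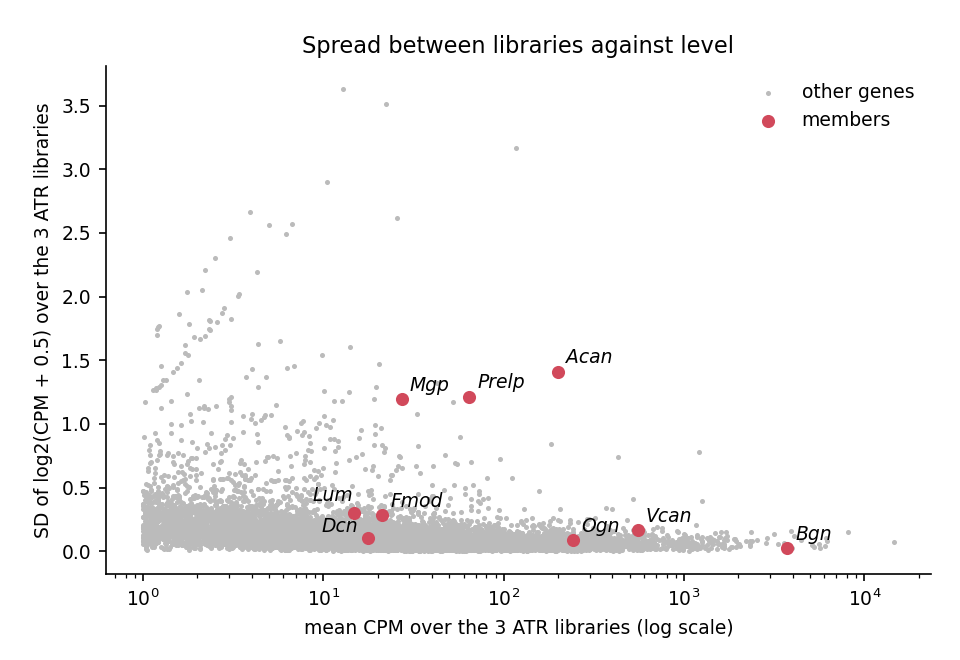
SD of log2(CPM + 0.5) over the 3 ATR libraries against mean CPM (log axis) for 12591 genes that averaged 1 CPM or more, members in red. Acan, Prelp and Mgp lie at 1.41, 1.21 and 1.19, above nearly all genes of their level, and the other members lie in the main cloud or at its upper edge.

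The 3 variable members shared ATR 2 as their highest library and differed in the rest. The lowest library was ATR 1 for Acan and Prelp and ATR 3 for Mgp. The ratio of Mgp to Acan, in TPM, was 3.84, 2.22 and 0.943 in the 3 libraries, and that of Prelp to its neighbour Fmod was 1.38, 5.20 and 2.35. Together the 3 genes summed to 98.6, 442 and 135 TPM.

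Likeness to other genes was measured as the Euclidean distance between log2 deviations over the 3 libraries, among 10506 genes that averaged 5 CPM or more, and with 3 points it describes these libraries alone. Nearest to Acan were Ptgs1 (cyclooxygenase 1) at a distance of 0.13, Aoc3 (a membrane amine oxidase) at 0.41 and LOC103690996 at 0.47. Aoc3 stood at 2.01, 11.2 and 5.03 TPM. Near to Prelp were Gda (guanine deaminase) at 0.06 and Xirp1 (an actin-binding protein of striated muscle) at 0.23. Gda stood at 11.9, 56.8 and 14.9 TPM. Nearest to Mgp were Gas1 (a membrane protein that binds hedgehog) at 0.32, Xirp1 at 0.37 and Gda at 0.39. Gda and Xirp1 were thus near to both Prelp and Mgp.

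Most stromal fibroblast markers were also highest in ATR 2. Of 9 measured markers 8 reached 1 TPM, and their summed level was 1208, 2061 and 1685 TPM in the 3 libraries. Of the 8 that averaged 1 CPM or more, 6 were highest in ATR 2 and 6 lowest in ATR 1, among them Thy1 (a fibroblast surface antigen) at 23.2, 104 and 82.7, Col1a2 (a collagen I chain, its reads not whole) at 287, 801 and 601, and Pdgfra at 1.36, 5.27 and 3.67 TPM. The libraries stood in the same order for these 3 genes as for Acan. Tcf21, a further marker, was at 0 in ATR 1 and at most 0.37 TPM in the others. Dcn, itself a familiar fibroblast gene, did not share that order, and Col14a1 was lowest in ATR 2, at 333, 267 and 305 TPM. The marker counts include small differences, Pi16 being highest in ATR 2 at 4.03, 4.19 and 3.51 TPM. Gsn was lowest in ATR 1 at 128.6, 128.9 and 137.2 TPM. Des (desmin), a muscle and pericyte marker, was highest in ATR 2, at 7.22, 20.4 and 7.69 TPM, but the list it belongs to summed to 489, 486 and 439 TPM. Leukocyte markers summed to 91.4, 116 and 114 TPM and surface epithelium markers to 2250, 2090 and 2171 TPM in the 3 libraries. Most of the leukocyte sum was Lyz2, at 60.2, 78.6 and 83.2 TPM, while Ptprc averaged 0.85 TPM. Theca and endothelial markers summed to at most 4.55 TPM in any library. Granulosa markers summed to 3126, 2824 and 2721 TPM. The part of other cells in the spread of Acan, Prelp and Mgp was not tested.

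Other genes of the family were mostly low. Of the 10 measured small leucine-rich genes outside the members, 4 reached 1 TPM, with a median of 0.650 TPM. Tsku (tsukushi, a secreted inhibitor of BMP in chick) led at 72.6 ± 6.77 TPM, followed by Omd and by Podn (podocan, matched by gene ID because the table uses an older symbol) at 11.05 ± 0.618 TPM. Chad (chondroadherin of cartilage) had a mean of 0.010 TPM. Of 5 genes tested, 1 was called for spread, against 23.2% of all genes, namely Tsku at 66.2, 79.7 and 71.9 TPM. Among other lecticans and hyaluronan partners, 2 of 7 reached 1 TPM: the hyaluronan receptor Cd44 at 87.5 ± 7.97 TPM and Hapln3 at 24.4 ± 0.293 TPM. Hapln2 averaged 0.737 ± 0.302 TPM on 9, 13 and 7 reads, and in ATR 3 it was below Hapln1, at 0.48 against 1.25 TPM. The brain lecticans Ncan and Bcan were at or below 0.04 TPM in each library.

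Other proteoglycan core proteins, many of them of the cell surface or basement membrane, were a larger pool than the members other than Bgn. Of 19 measured core proteins 16 reached 1 TPM, with a sum of 1439, 1395 and 1421 TPM in the 3 libraries, against 466, 809 and 495 TPM for the 9 members without Bgn. Sdc2 led at 311 ± 26.3 TPM, followed by Sdc1 at 273 ± 9.01 and Sdc4 at 242 ± 12.4 TPM, all of them transmembrane syndecans with heparan sulfate chains. The test called 11 of 17 for spread, against 23.2% of all genes tested, and nothing particular to the list is read from that. Esm1 (endocan) stood at 4.0, 13.7 and 20.8 TPM, lowest in ATR 1 as Acan was but highest in ATR 3. Spock2 (testican 2, its reads not whole) stood at 6.95, 12.2 and 6.22 TPM, highest in ATR 2 and lowest in ATR 3 as Mgp was. Gpc3, a glypican named here after its values were seen, had 31, 200 and 15 reads, the same order as Mgp.

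Enzymes that build the sugar chains were measured as 3 lists, and their calls for spread stand beside 23.2% of all genes tested. All 6 enzymes of the linker that joins chain to core protein reached 1 TPM, with a median of 47.2 TPM. They were led by the glucuronyltransferase B3gat3 at 118 ± 5.87, the initiating xylosyltransferase Xylt1 at 55.3 ± 8.29 and B4galt7 at 47.9 ± 2.62 TPM, and 1 of 6 was called for spread, Xylt1 with its highest level in ATR 1. Of 18 genes of chondroitin and dermatan sulfate synthesis 16 reached 1 TPM, with a median of 21.8 TPM and 4 of 18 called. Their sums of 785, 795 and 769 TPM differed little between libraries. The polymerising factors Chpf at 183 ± 3.62 and Chpf2 at 127 ± 2.202 TPM led, followed by Csgalnact2 at 91.7 ± 5.97 TPM. The 6 keratan sulfate genes had a median of 15.4 TPM and 2 of 5 called, led by B3gnt7 at 101 ± 5.69, B4galt1 at 73.3 ± 0.8002 and the sulfotransferase Chst2 at 22.4 ± 2.01 TPM. The median SD on the log2 scale was 0.07, 0.08 and 0.10 for these enzyme lists in the order given, beside 0.08 for all genes.

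**Figure D5:**
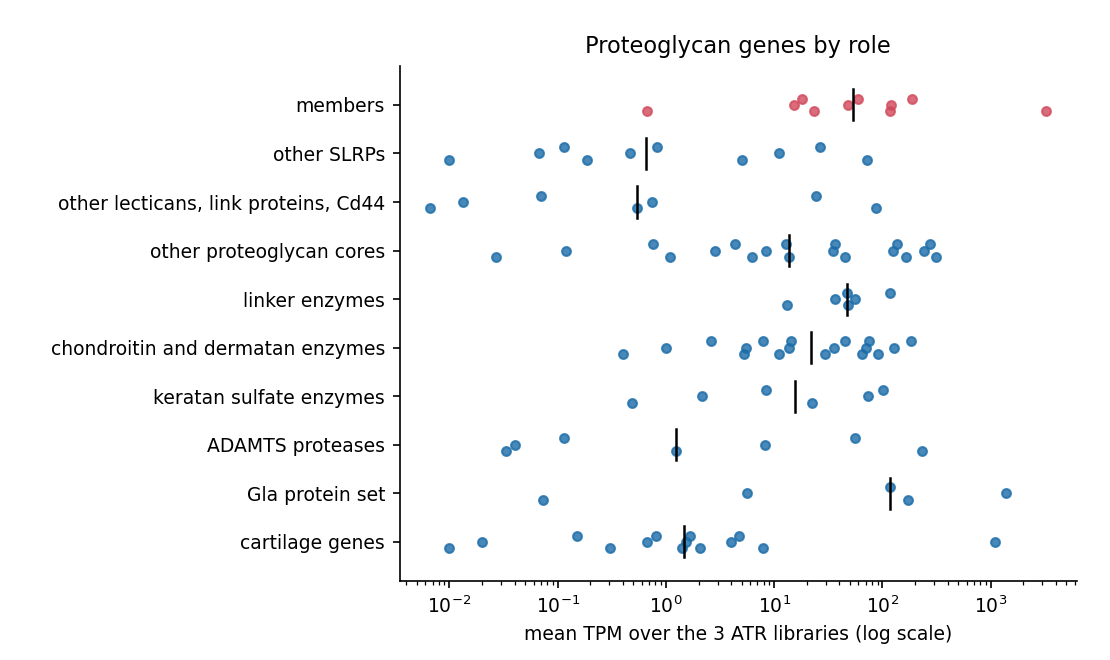
Mean TPM over the 3 ATR libraries (log axis) of each gene in the member list and the related lists, 1 point a gene, with a vertical line at each list's median. The median is 53.7 TPM for the members, 0.650 TPM for other small leucine-rich genes, 47.2 TPM for linker enzymes and 1.48 TPM for cartilage genes.

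Proteases that cut aggrecan and versican were led by Adamts1 at 230 ± 17.3 TPM, followed by Adamts5 at 55.6 ± 5.89 and Adamts4 at 8.17 ± 1.55 TPM, while 3 of the 7 stayed at or below 0.17 TPM in each library. All 4 tested were called for spread, against 23.2% of all genes tested. Adamts1 was highest in ATR 2, at 225, 250 and 217 TPM, Adamts4 was highest in ATR 1 and Adamts5 in ATR 3. For vitamin K-dependent proteins such as Mgp, the carboxylase Ggcx stood at 170.5 ± 2.87 and the vitamin K reductase Vkorc1 at 118 ± 5.26 TPM. Gas6, another protein of this kind and a ligand of TAM receptors, stood at 1373 ± 57.5 TPM. In this vitamin K list 2 of 4 tested genes were called, against 23.2% of all genes tested.

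Most genes of the cartilage list were low. In the cartilage list 8 of 14 measured genes reached 1 TPM, and the median was 1.48 TPM. The test called 5 of 10, against 23.2% of all genes tested. Col11a1 (a fibrillar collagen chain found in cartilage and elsewhere) was the exception, at 1249, 980 and 1069 TPM, highest in the library where Acan was lowest. It was followed by Sox5 at 7.90 ± 0.335 and Runx2 at 4.77 ± 0.607 TPM. Sox9, the regulator of aggrecan in cartilage, and Col2a1, its main collagen, are named here after their values were seen. Sox9 stood at 1.08, 1.68 and 2.29 TPM, lowest in ATR 1 as Acan was but highest in ATR 3. Col2a1 stood at 1.41 ± 0.218 TPM, and Comp and Matn1 were at or below 0.46 TPM in each library.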

How the data were processed

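Per the labels' protocols, poly(A) RNA of primary rat granulosa cells was sequenced in 150-base pairs (MGI2000), with no strand-marking step described. Per the file headers, the authors deposited for each gene a TPM value and an estimated count of reads. Tools listed in the submitters' processing notes, without roles, are StringTie 2.1.5, HISAT2 2.2.1 and fastp 0.20.1. The notes name both a rat build, Rnor_6.0, and a mouse build, GRCm38, while the gene IDs are those of rat. The estimated counts of 9 of the 10 members are whole (within 0.001), while those of Bgn are not, so reads may be shared with another gene there. The way reads were divided is not stated there.

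Estimated counts were rounded and scaled by TMM (edgeR 4.0.16 in R 4.3.3). Spread between libraries was tested per gene, across all 13309 genes with at least 30 reads in all, by a chi-square test of the counts, called at 0.05 after Benjamini-Hochberg adjustment. This test compares libraries, not conditions, and counts duplicated reads as independent. It was checked on simulated counts with no noise beyond counting, so that check says nothing of other noise between libraries. Read ratios carry exact (Clopper-Pearson) 95% intervals. At 18677212 to 19170552 reads a library, these cover counting error only, and genes of about 10 reads cannot be ranked. Members, related lists and tests were chosen with earlier results of these data known. Every member was named, with the 3 nearest genes in pattern (mean of at least 5 CPM, member SD above 0.5, 1 of them not reported here) and, of each related list, the 3 highest by mean TPM and those past the same limits. Of the cell type markers, lists are given by their sums, with examples. Other scalings (library totals, DESeq2 1.42.0 size factors), minimum counts, pseudocounts and leaving out each library were tried. Python 3.11.15, numpy 2.4.6, pandas 2.3.3, scipy 1.17.1 and matplotlib 3.10.9 were used.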

Additional observations from a re-analysis of the deposited data

How the results depend on the processing

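No paired analysis was possible because 1 group, ATR, was analysed, and the alternatives for a contrast with Control were not run. The count of genes with spread beyond counting noise was 3087 of 13309. It was 3167 with library totals, 3080 with DESeq2 size factors, 3162 with a minimum of 10 reads, 3063 with a minimum of 1 read and 2125 among genes with whole counts alone. With 1 library left out it ran from 1528 (without ATR 1) to 2230 (without ATR 3), where fewer libraries give less power. The called members stayed the same 8 under both scalings and both minimum counts. The summed level of the members ran from 3749 to 3861 TPM with a library left out.

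Acan, Prelp and Mgp had log2 differences between highest and lowest library of 2.78, 2.28 and 2.16 as reported. On log2(TPM + 1) these were 2.68, 2.1 and 2.19, and on log2(CPM + 2) they were 2.74, 2.22 and 2.03. Prelp fell to 0.42 and Mgp to 0.20 without ATR 2, and Acan to 0.97 without ATR 1 and 1.81 without ATR 2. The spread of Prelp and Mgp thus rests on ATR 2. Ranking by CPM in place of TPM moved 7 of the 10 members by more than the spread of their rank between libraries, for example Mgp, at 6273 in place of 1571, since CPM is not scaled for length. Aspn, with 7 to 11 reads, is limited by depth.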
